A study of Bos taurus with 3 samples.

Results

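The genes described here build the outer segment of the photoreceptor, the stack of membrane discs in which light is captured, and the matrix around it. They were chosen by name from the deposited expression table: PRPH2 and ROM1 for the disc rim, PROM1 and CDHR1 (earlier called PCDH21) for the disc base, RP1 and FSCN2 for the axoneme and its actin, and IMPG1 for the matrix. All 7 were found among the 13574 genes listed. The study sequenced poly(A) RNA of retina from cattle of mixed strain, collected between 7 and 10 in the morning, in 3 libraries that form 1 group with no treatment and no control tissue. Each library was made from pooled total RNA, and nothing in the labels says that the pools came from separate animals, so the SDs given measure the spread among these libraries, whether technical or between animals.

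Rods and cones renew their outer segments throughout life by adding new discs at the base, where the connecting cilium joins the outer segment to the cell body. PRPH2 (peripherin-2) and ROM1 are related tetraspanins that assemble with each other and shape the highly curved rim of each disc. PROM1 (prominin-1), a membrane glycoprotein of protrusions, and CDHR1, a photoreceptor cadherin, sit where new discs form. RP1 is a microtubule-associated protein of the outer segment axoneme that helps to align the discs, and FSCN2 is the retinal fascin, a protein that bundles actin filaments. IMPG1 is a proteoglycan of the interphotoreceptor matrix, which fills the space between photoreceptors and pigment epithelium. In human, mutations in PRPH2, ROM1, PROM1, CDHR1, RP1 and IMPG1 are linked to inherited retinal disease.

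Depth was ample for each member. The values are FPKM (fragments scaled by the length of the gene and by the reads of the library), and they imply denominators of 36656987 to 49102476 reads. The members had between 4229 reads (PROM1, library 1) and 143535 reads (PRPH2, library 3). The retina label fitted the markers, as all 8 measured rod genes and all 9 genes shared by rods and cones had a mean of at least 100 FPKM, against 3.81% of all listed genes, as did 5 of 9 cone and 6 of 8 Müller glia genes. Of the pigment epithelium list 1 of 11 measured genes reached that level, RGR, which Müller glia also express. Reads of XIST, which is transcribed from an inactivated X chromosome, numbered 3987 in library 1, 3 in library 2 and 3628 in library 3. The mix of animals in library 2 thus differed from that in the others. The SDs and each contrast with library 2 include this difference of animals, by an amount not tested. Member levels, differences between roles, the ratio of PRPH2 to ROM1 and counts over lists were also computed without each library in turn.

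The rim genes stood far above the other structural genes in RNA level. PRPH2 had 1802, 2263 and 2226 FPKM in libraries 1, 2 and 3, and was the 7th, 6th and 6th highest gene of the respective library. ROM1 had 1698, 2047 and 1516 FPKM, and was the 8th, 8th and 9th. Both were thus in the top 10 genes of every library. Together the rim genes made up 84.7% ± 1.92 (SD, n = 3) of the summed FPKM of the 7 members, which in turn held 1.41% ± 0.121 of the summed FPKM of all listed genes.

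PRPH2 was above ROM1 in each library, but by an amount that differed between them. The ratio of PRPH2 to ROM1 was 1.06 in library 1 (95% exact interval 1.05 to 1.07), 1.11 in library 2 (1.10 to 1.11) and 1.47 in library 3 (1.46 to 1.48), where the intervals cover counting error only. In library 3 the FPKM of ROM1 was at its lowest while that of PRPH2 was close to its level in library 2. Neither statement makes allowance for gene length (below). On the scale of log2(FPKM + 1) the difference was 0.26 ± 0.26 (SD, n = 3), about as large as its spread, and 0.12 without replicate 3. The exact two-sided sign-flip test gave p = 0.25, the smallest that 3 libraries allow, so neither this nor any other difference between members could pass a threshold of 0.05.

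The order of the rim pair also rests on the gene lengths used by the authors, 1313 bases for PRPH2 and 1547 for ROM1. In reads, with no division by length, ROM1 was above PRPH2 in libraries 1 and 2, with ratios of PRPH2 to ROM1 of 0.901 and 0.938, and below it in library 3, with 1.25. In the ARS-UCD2.0 assembly ROM1 overlaps EML3, a microtubule-associated protein, and CSKMT, a methyltransferase listed as METTL12. Their means were 7.14% and 1.27% of that of ROM1 on the FPKM scale. Whether reads of these partners were counted for ROM1 was not tested.

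**Figure D1:**
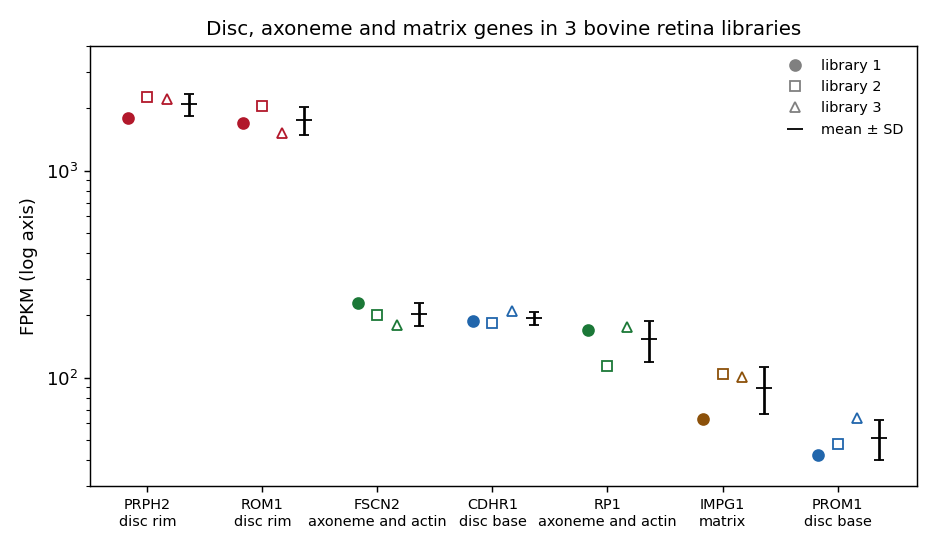
FPKM (log axis) of the 7 genes in libraries 1, 2 and 3, coloured by role and ordered by mean, with the mean ± SD of the 3 libraries in black. PRPH2 and ROM1 lie between 1516 and 2263 FPKM, and the other 5 genes between 42.1 and 229 FPKM.

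At the disc base, CDHR1 was the steadiest of the members and PROM1 the lowest. CDHR1 had 187, 183 and 210 FPKM in libraries 1, 2 and 3, a mean of 193 ± 14.7 (SD, n = 3), and ranked 209 of 13574 genes. The SD of its log2(FPKM + 1) was 0.11, at percentile 21.0 of the SDs of the 9599 expressed genes, those that averaged 1 FPKM or more. PROM1 had 42.1, 47.5 and 63.6 FPKM, a mean of 51.1 ± 11.2 (SD, n = 3), and ranked 1240. Library 3 was the highest for both base genes, with a ratio of highest to lowest library of 1.51 for PROM1 and 1.15 for CDHR1.

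CDHR1 was above PROM1 in each library, by 4.43, 3.85 and 3.30 times in libraries 1, 2 and 3. The log2 difference was 1.92 ± 0.21 (SD, n = 3; exact two-sided sign-flip p = 0.25, the smallest possible). PROM1 is also expressed by cells other than photoreceptors in many tissues, so its level in whole retina need not come from photoreceptors alone, and the share of each source was not tested. In bulk tissue, fewer cells of a type and less RNA per cell cannot be told apart.

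The axoneme and actin genes lay close to CDHR1. FSCN2 had 229, 200 and 179 FPKM in libraries 1, 2 and 3, a mean of 203 ± 25.0 (SD, n = 3), and ranked 196. RP1 had 170, 114 and 175 FPKM, a mean of 153 ± 33.8 (SD, n = 3), and ranked 301. RP1 was low in library 2, and that library lay below both others by more than they differed from each other. FSCN2 was lowest in library 3, so the 2 genes had their low values in different libraries, before any allowance for gene length (below).

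RP1 is the longest of the members, with a listed gene length of 6317 bases against 1550 for FSCN2. Though its FPKM was the lower of the pair in each library, it had 39319, 28156 and 54385 reads where FSCN2 had 13026, 12098 and 13657. The ratio of FSCN2 to RP1 was 1.35, 1.75 and 1.02 in libraries 1, 2 and 3. The log2 difference was 0.42 ± 0.38 (SD, n = 3; exact two-sided sign-flip p = 0.25), little more than its spread.

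In the matrix, IMPG1 had 62.9, 104 and 101 FPKM in libraries 1, 2 and 3, a mean of 89.2 ± 22.9 (SD, n = 3), and ranked 595. Library 1 was the low one, while libraries 2 and 3 were close to each other. The SD of its log2(FPKM + 1) was 0.40, at percentile 90.8 of the expressed genes and the widest of the 7 members. Its closest relative, the proteoglycan IMPG2, was not analysed here.

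Of the 21 pairs of members 20 kept their order in all 3 libraries. The exception was FSCN2 and CDHR1, next to each other in the order of means, where FSCN2 was higher in libraries 1 and 2 (ratios 1.23 and 1.09) and lower in library 3 (0.854). The widest step between neighbours was that from ROM1 to FSCN2, 8.58-fold on the scale of FPKM + 1 (log2 3.10 ± 0.23, SD, n = 3). The steps from CDHR1 to RP1 (log2 0.36 ± 0.28), from RP1 to IMPG1 (0.78 ± 0.64) and from IMPG1 to PROM1 (0.78 ± 0.29) were smaller. RP1 and IMPG1 nearly met in library 2, with a ratio of 1.10, against 2.70 in library 1.

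**Figure D2:**
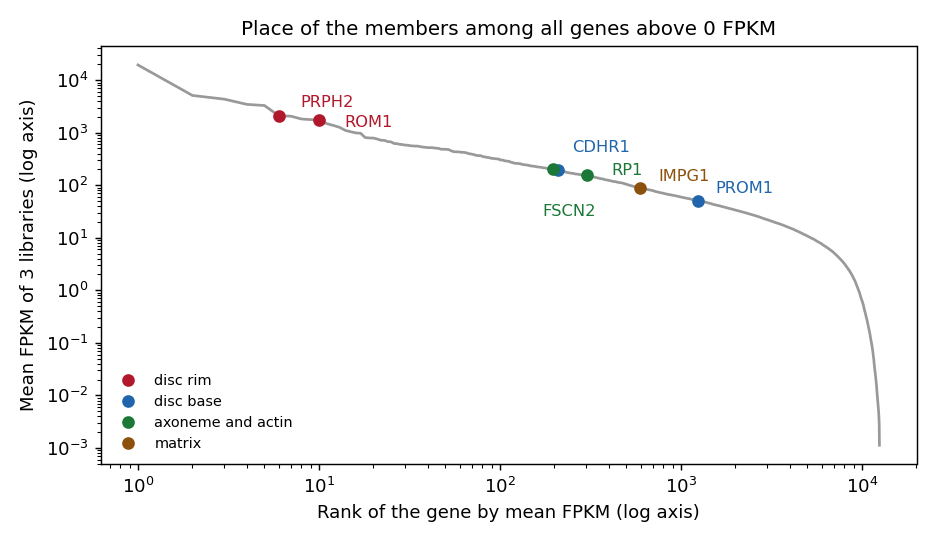
Mean FPKM of the 3 libraries against rank for all genes above 0 FPKM (both axes log), with the 7 members marked by role. The rim genes rank 6 and 10, the other members between 196 and 1240.

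The structural roles were then compared with each other, each as the mean log2(FPKM + 1) of its members in a library. The disc rim was above the disc base by 19.5-, 22.8- and 15.7-fold in libraries 1, 2 and 3, a log2 difference of 4.26 ± 0.27 (SD, n = 3). It was above the axoneme and actin genes by 8.83-, 14.1- and 10.3-fold (log2 3.44 ± 0.35), and above the matrix gene by 27.4-, 20.5- and 18.1-fold (log2 4.44 ± 0.31). These gaps were wider than their spread in all 3 libraries, and the exact two-sided sign-flip p was 0.25 for each, the smallest possible.

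The other roles were closer together. The axoneme and actin genes were above the matrix gene by 3.11-, 1.45- and 1.75-fold in libraries 1, 2 and 3 (log2 0.99 ± 0.57, SD, n = 3). The disc base was below the axoneme and actin genes by a log2 difference of -0.81 ± 0.29, in the same direction in each library (exact two-sided sign-flip p = 0.25 for both). The disc base and the matrix did not differ beyond their spread, with base to matrix ratios of 1.41, 0.900 and 1.15 (log2 0.18 ± 0.32; exact p = 0.5). That last difference hides the contrast between the base genes themselves, since CDHR1 was above IMPG1 in all 3 libraries and PROM1 below it. With the FPKM of a role summed, which lets CDHR1 dominate the base and sets 2 genes against 1, base over matrix was log2 1.47 and the axoneme and actin genes over matrix 2.01.

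**Figure D3:**
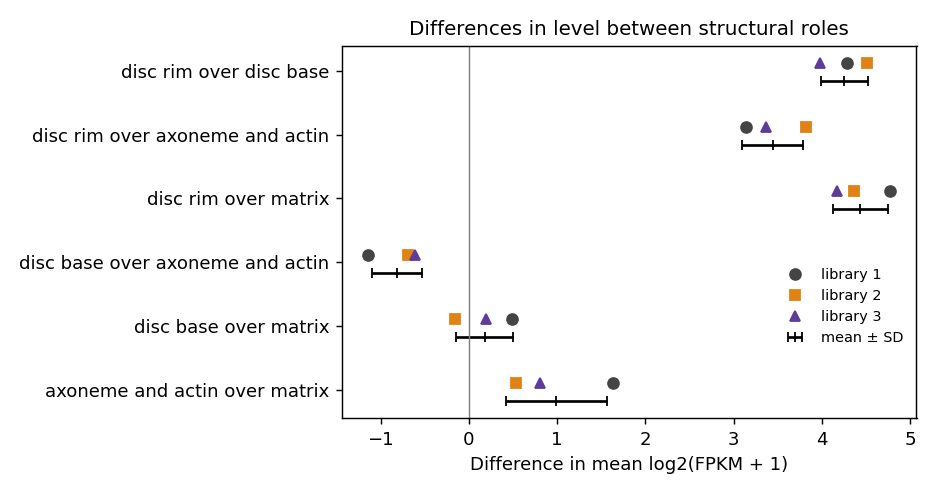
Difference in mean log2(FPKM + 1) between pairs of roles in each library (coloured symbols) with the mean ± SD of the 3 libraries in black; the vertical line marks no difference. The 3 differences of the disc rim lie between 3.14 and 4.78, and disc base over matrix spans 0.

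Across libraries the members did not move together, and some varied more than most genes. The SD of log2(FPKM + 1) was at percentile 90.8 of expressed genes for IMPG1, 84.8 for RP1 and 79.0 for PROM1. For the other members it lay between percentiles 21.0 (CDHR1) and 59.2 (ROM1). Before any allowance for gene length (below), PRPH2, PROM1 and IMPG1 were lowest in library 1. CDHR1 and RP1 were lowest in library 2, and ROM1 and FSCN2 in library 3. Of all expressed genes 24.5%, 32.1% and 43.3% were lowest in libraries 1, 2 and 3. Some member placements were narrow, as CDHR1 in library 2 was at 0.979 times its level in library 1. A fold of 1.5 on the scale of FPKM + 1 was used to count larger differences, with 1 library on each side and hence no test. Between libraries 1 and 2, 1 of 7 members was past it (IMPG1), against 9.24% of the 9599 expressed genes. Between libraries 1 and 3, 1 of 7 was past it (IMPG1 again), against 12.3%, and between libraries 2 and 3, 1 of 7 (RP1), against 7.42%. A single call among 7 genes is close to these shares.

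IMPG1 was 1.65 times as high in library 2 as in library 1 (95% exact counting interval 1.61 to 1.70) and 1.60 times as high in library 3 (1.56 to 1.65). Its absolute log2 differences were larger than those of 94.8% and 91.3% of expressed genes. RP1 was 1.53 times as high in library 3 as in library 2 (1.51 to 1.56), a difference larger than that of 93.7% of genes. PROM1 was 1.51 times as high in library 3 as in library 1 (1.45 to 1.57) but 1.497-fold after 1 FPKM was added, just short of the fold used. In that comparison PROM1 was past the fold with a pseudocount of 0.1, under both scalings and after allowance for gene length (below).

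Gene length moved with the differences between libraries. The median log2 difference of genes as long as RP1 was 0.22 between libraries 3 and 2, and once this trend was subtracted the difference of RP1 was 0.39 in place of 0.61, and no member was past 1.5-fold. Between libraries 2 and 1 the same step put RP1 past it, at a log2 difference of -0.59. For library 3 over 1 it put PROM1 past that fold, at log2 0.595 in place of 0.582. The difference of IMPG1 kept its direction and size, at log2 0.77 for library 2 over 1 and 0.60 for library 3 over 1. That of FSCN2 for library 3 over 2 went from -0.16 to -0.003, so those libraries were about level. That of PRPH2 for library 3 over 1 rose from 0.30 to 0.58. The difference of ROM1 for library 3 over 1 went from -0.16 to 0.01, so ROM1 was about level in those libraries.

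**Figure D4:**
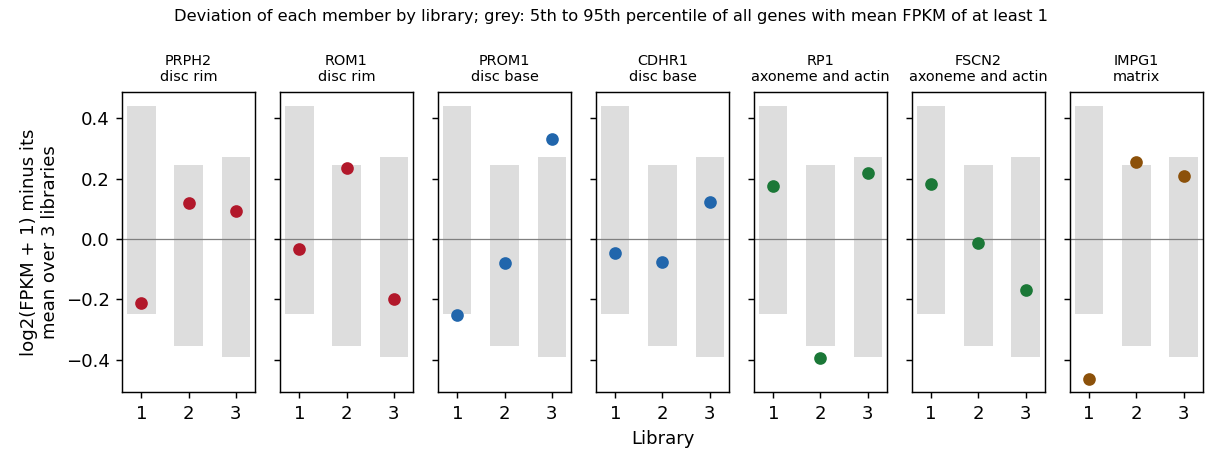
log2(FPKM + 1) of each member in libraries 1, 2 and 3 minus its mean over the 3 libraries (points), beside the 5th to 95th percentile of the same deviation over 9599 genes that averaged 1 FPKM or more (grey bars). The lowest point is IMPG1 in library 1 at -0.46. Outside the bars lie 5 of 21 points, belonging to IMPG1, PROM1 and RP1, where 10% of all values lie outside by construction. PROM1 in library 1 is only just outside, at -0.251 against an edge of -0.249.

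The members were also set against photoreceptor genes as a class. Over 17 rod genes and genes shared by rods and cones the median log2 deviation was -0.10, 0.16 and -0.03 in libraries 1, 2 and 3. With these medians subtracted, IMPG1 was at -0.36, 0.10 and 0.24, RP1 at 0.28, -0.55 and 0.25, and PRPH2 at -0.11, -0.04 and 0.12. PRPH2 thus stayed close to the class in each library, and RP1 departed most from it, in library 2. The length trend was not subtracted here, and at the length of RP1 it was log2 0.22 for library 3 over 2. Markers of the pigment epithelium had a median deviation of 0.35, -0.02 and -0.37 in libraries 1, 2 and 3, opposite in sign to IMPG1. The medians over all expressed genes had the same signs, at 0.06, -0.01 and -0.04. Most genes of the pigment epithelium list were low, with a median of 3.31 FPKM. The 11 measured genes of that list of 12 summed to 637, 637 and 491 FPKM, mostly RGR, and TYR, tyrosinase, was listed at 0 in libraries 1 and 2. The part of pigment epithelium in the library differences was not tested.

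Other genes of the same structures were taken from lists written with earlier results of these data known. Beside the rim pair stood 13 measured genes of the disc membrane and of the tetraspanin family, with a median of 64.7 FPKM, of which 4 (30.8%) had a mean of at least 100 FPKM, against a median of 5.67 FPKM and 3.81% for all listed genes. The highest were the tetraspanin TSPAN7 at 207 FPKM ± 33.0, the rod channel subunit CNGA1 at 191 ± 9.69 and ABCA4, the retinoid flippase of the disc rim, at 164 ± 20.2 (SD, n = 3). All 13 lay below both rim genes in mean FPKM. None of the other tetraspanins measured (CD9, CD63, CD81, CD82, CD151, TSPAN3, TSPAN7) exceeded 207 FPKM.

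At the disc base, new discs are pushed out by a branched actin network. The 11 measured genes of that network and its regulators had a median of 30.2 FPKM, and 1 of them (9.09%) reached 100 FPKM. The highest were cofilin CFL1, which severs actin filaments, at 319 FPKM ± 37.9, profilin PFN2, which delivers actin monomers, at 92.6 ± 9.05 and the Arp2/3 complex subunit ARPC2 at 78.7 ± 8.32 (SD, n = 3). Such actin genes are used across many cell types. FSCN2, at 203 FPKM, lay above each of them except CFL1.

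The axoneme and connecting cilium list had 10 measured genes with a median of 7.48 FPKM, and 2 (20.0%) reached 100 FPKM. These were TULP1, a photoreceptor protein needed for transport to the outer segment, at 579 FPKM ± 71.9 and the kinase MAK, which acts on the length of cilia, at 178 ± 11.8. RPGRIP1, which anchors a protein complex in the connecting cilium, followed at 34.8 ± 1.63 (SD, n = 3). RP1, at 153 FPKM, therefore stood with TULP1 and MAK and above the 8 other genes. Of these 10 genes 9 were highest in library 1 and none was lowest there, against 45.3% and 24.5% of expressed genes. This count was made after the values were seen. RP1 was highest in library 3, but only 1.03 times as high as in library 1. With the length trend subtracted, its log2 difference of library 3 over 1 was -0.21.

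The list written for the interphotoreceptor matrix had 12 measured genes with a median of 14.7 FPKM, and 3 (25.0%) reached 100 FPKM. RBP3, the retinoid carrier of the matrix, had 714, 964 and 1241 FPKM in libraries 1, 2 and 3. SPARC, a matricellular protein, had 80.2, 146 and 123 FPKM and MFGE8, a bridging protein in phagocytosis, 95.2, 118 and 111. All 3 were lowest in library 1, as IMPG1 was, a likeness noticed after the values were seen. Of the 9 expressed genes of the list 5 were lowest in library 1, against 24.5% of all expressed genes. The same held for 4 of 8 rod genes and 6 of 9 cone genes. It also held for 4 of 9 genes that both photoreceptor types use, RBP3 again among them, and 4 of 8 Müller glia genes. It was thus not seen in the matrix list alone. At the other end, the hyaluronan synthases HAS3 and HAS2 had means of 0.975 and 0.0164 FPKM and versican, VCAN, 0.0637.

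**Figure D5:**
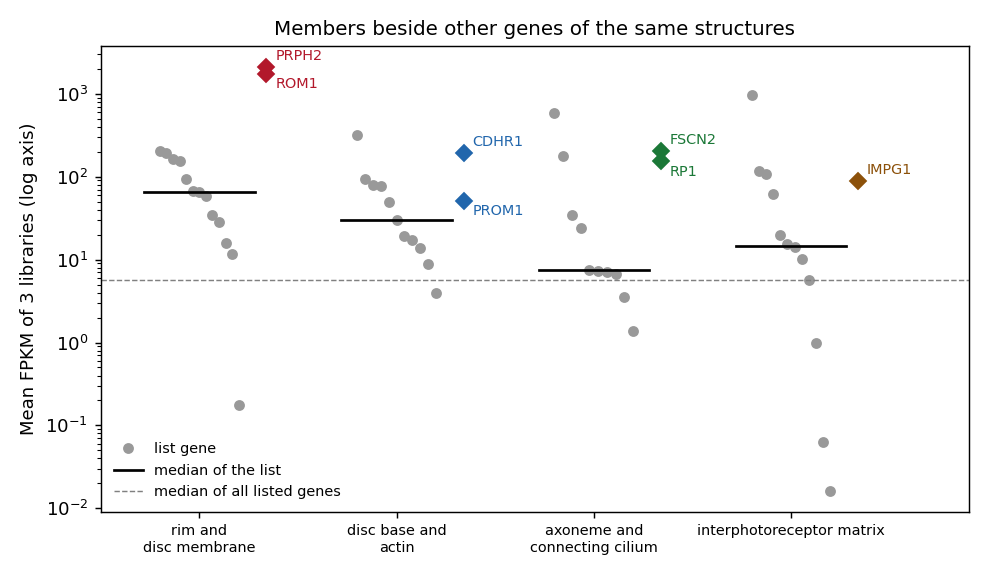
Mean FPKM of the 3 libraries (log axis) for genes of 4 lists (grey points, with the list median as a black bar), with the members of the matching role as coloured diamonds and the median of all listed genes, 5.67 FPKM, as a dashed line. FSCN2 is drawn with RP1 beside the axoneme list; PRPH2 and ROM1 lie above all 13 other genes of the disc membrane list.

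The measured relatives lay below the members they resemble. Fascin-1, FSCN1, the form of many other tissues, had 25.6, 32.1 and 30.9 FPKM in libraries 1, 2 and 3, against 179 to 229 FPKM for FSCN2. FSCN3, known from testis, was listed at 0 in all 3 libraries. The cadherins CDHR2 and CDHR5, known from the brush border of gut and kidney, had means of 0.0782 and 0.183 FPKM against 193 for CDHR1. DCX, which shares the doublecortin domain with RP1, had 1.65 FPKM. Of the 9 relatives 4 were not analysed here (PROM2, RP1L1, IMPG2 and DCDC2). None of the 5 measured reached 100 FPKM, against 3.81% of all listed genes, and none of 5 is close to that share.

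The genes most like each member were those at the smallest Euclidean distance in log2(FPKM + 1) over the 3 libraries, which measures level and library pattern together. For PRPH2 these were GNB1, a transducin beta subunit, at 0.38, and RCVRN, recoverin, a photoreceptor calcium sensor, at 0.45. For ROM1 they were RCVRN at 0.22 and GNB1 at 0.34, so that both rim genes had the same 2 neighbours among the few genes at this level. CDHR1 lay nearest to YWHAB (0.18), a 14-3-3 protein, and CNGA1 (0.21). RP1 lay nearest to YWHAE (0.24), another 14-3-3 protein, and CPLX4 (0.27), a complexin of ribbon synapses. FSCN2 lay nearest to PTOV1 (0.07) and TSC22D1 (0.09), PROM1 to NBR1 (0.11), and IMPG1 to AARS (0.13) and APLP1 (0.15). With 3 libraries such likeness is a description of level more than of pattern.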

How the data were processed

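The deposited table gives FPKM per gene and library, which the authors computed, per the file headers, with the gene length used. CASAVA 1.8.1, the aligner GSNAP and the counter HTSeq are listed, per the submitters' processing notes. Their settings, the build, the annotation and the use of strand were not given in the sources used here. Per the labels' protocols, 400 to 450 ng of poly(A) RNA from pooled total RNA was random primed and fragmented to about 200 bp. No per-sample column was left unused.

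FPKM times gene length gave whole multiples of 1 step, to within 0.1, for 100% of values of up to 2000 reads, from which reads per gene and denominators followed. Exact 95% intervals (Clopper-Pearson on reads) cover counting error only, because no molecular identifiers separate molecules from copies. Levels were compared on log2(FPKM + 1), which understates the change of low genes, with exact sign-flip tests over the 3 libraries; differences between single libraries have no test. With 1 group, no count model was run. Read recovery, fold counting and removal of the length trend (running median over 501 genes ranked by length) were tested on simulated data. Python 3.11.15, numpy 2.4.6, pandas 2.3.3 and scipy 1.17.1 were used.

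The members, lists and tests were chosen with earlier results of these data known. Named genes were all members, the 3 highest genes of each list, every measured relative, and the 2 nearest genes of each member, of which 1 is not reported here; the tetraspanins, HAS2, HAS3, VCAN, TYR, EML3, CSKMT and XIST were named after their values were seen. All 7 member symbols matched RefSeq names of ARS-UCD2.0, used for names and overlaps alone, because the build behind the table is not stated. Alternatives were other pseudocounts, scalings, thresholds, backgrounds, reads in place of FPKM, and leaving out each library.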

Additional observations from a re-analysis of the deposited data

How the results depend on the processing

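The mean FPKM of every member moved by less than 1 SD under both scalings. Without each library in turn it could not move by more than that with 3 libraries, so this shows nothing on stability. No paired analysis was possible because the libraries form 1 group. The rim stayed above the base, the axoneme and actin genes and the matrix under each alternative run, with log2 differences of 2.32 to 5.45. Base over matrix reversed to -0.13 in reads not divided by length, and PRPH2 over ROM1 fell to 0.03 there. With summed FPKM of a role, base over matrix rose from log2 0.18 to 1.47 and axoneme and actin over matrix from 0.99 to 2.01, since a sum sets 2 genes against 1. Within the genes that averaged 1 FPKM or more the percentiles were 99.94 for PRPH2, 99.90 for ROM1, 87.1 for PROM1, 97.8 for CDHR1 and 97.96 for FSCN2, where the lower genes drop out. Over all genes they were 99.952 to 99.960 for PRPH2 and 99.930 to 99.945 for ROM1 without one library. The number of members past the fold between libraries changed with the settings. With equal sums it was 2 of 7 in each of the 3 comparisons. The shares of expressed genes there were 9.99%, 10.9% and 9.83% for libraries 1 and 2, 1 and 3, and 2 and 3. With the length trend removed the number was 2, 2 and 0 in the same order, against 8.32%, 6.34% and 6.15%. Between libraries 1 and 3 it was 2 with the median ratio (10.8% of expressed genes) and with a pseudocount of 0.1 (16.3%). Past 2-fold it was 0 in each comparison, against 1.95%, 1.95% and 0.594%. At 50 FPKM 8 of 13 disc membrane and 4 of 11 disc base genes passed in place of 4 and 1. At 200 FPKM 1 of 13 disc membrane, 1 of 10 axoneme and 1 of 12 matrix genes passed. The share of all listed genes at 50 and 200 FPKM was not computed, so these counts have no background beside them. Depth did not limit the members, the least of which had 4229 reads.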
